A study of Mus musculus with 30 samples.

Results

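Extraocular muscle, the skeletal muscle that moves the eye, was compared at 24 h and 4 h of culture. Total RNA was hybridised to Affymetrix arrays of types A and B, which carry mostly different probe sets. A probe set is a group of short probes whose brightness is summarised as 1 intensity. The arrays were chosen by their titles, 3 at 4 h and 3 at 24 h on each type, which makes 12 of the 30 arrays of the series. The remaining arrays were taken at 0, 12 and 48 h, and those of 0 h enter neither the comparison nor its error here. Per the labels both groups are mouse extraocular muscle (EOM) with no named treatment, and every array title names cell culture. The sources used here do not give the strain, genotype, age or culture medium, or the event that started the clock. The labels do not say whether replicates came from separate cultures, so p-values measure only the spread between these arrays, which may be technical.

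The extraocular muscle label was checked against marker genes. Of 12 markers of the skeletal muscle lineage 11 lay above the filter on low values on the A arrays, among them Myog, Myod1, Acta1, Mylpf and Ttn, and Myf5 lay below it. Of 5 markers of extraocular muscle only Myh14 and Tcf21 were matched to a probe set by symbol, so these arrays tell muscle from other tissue better than eye muscle from limb muscle. No red blood cell marker of 5, 1 adipocyte marker of 8, 4 endothelial markers of 16 and 4 leukocyte markers of 18 lay above the filter on the A arrays. Those above it were Kdr, Flt1, Eng and Egfl7 of the endothelial list and Cd14, Csf1r, Laptm5 and Adgre1 of the leukocyte list. The endothelial markers Cdh5, Pecam1, Tie1 and Vwf and the leukocyte markers Ptprc, Tyrobp and Itgam were below it. Of the smooth muscle and pericyte markers 12 of 18 lay above the filter on these arrays, and of fibroblast markers 6 of 12. Of Schwann cell and neuronal markers 10 of 21 did, among them Sox10, Mbp, Pmp22, Vim and Nes. Others of that list, among them S100b, Ngfr, Gap43, Nefm, Nefh, Syp and Snap25, lay below the filter on the A arrays. This check does not exclude cells other than muscle.

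Every array had been scaled to the same trimmed mean of about 500 before deposit. Across probe sets, an A array correlated on average with the others of its time at 0.970 to 0.979, and a B array at 0.862 to 0.885. The B arrays measured changes less precisely, with log2 changes having a median SE of 0.260 against 0.176 on A. An array labelled 24 h, B replicate 3, correlated on average more closely with the 4 h arrays (0.882) than with the other 24 h arrays (0.871). On the A type the 4 h replicate 2 array had lower intensities of muscle genes than the other 4 h arrays, and the 24 h replicate 3 array had lower ones than the other 24 h arrays. Dropping B 24 h replicate 3 gave 81 calls on B in place of 59, with 42 shared. Counts of the lists that single A arrays change most are given below without those arrays.

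As background, muscle precursor cells in culture can leave the cell cycle, fuse and assemble sarcomeres, the repeating units of actin and myosin that contract. The aryl hydrocarbon receptor (AhR) is a ligand-activated transcription factor that enters the nucleus, binds DNA with a partner and induces cytochromes P450 of the Cyp1 family. NRF2, the product of Nfe2l2, is a transcription factor that is stabilised under oxidative or electrophilic stress and induces enzymes of glutathione synthesis and detoxification. Both act on genes of xenobiotic metabolism, and some genes, such as Nqo1, are known targets of both.

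Changes are given as log2 of intensity plus 16 at 24 h minus that at 4 h, ± SE, from limma, a linear model fitted across all probe sets of a type, and 1 unit is a 2-fold change. "Rose" and "fell" refer to probe sets with a Benjamini-Hochberg adjusted p under 0.05. On the A arrays 595 of 13576 probe sets tested were called (4.38%), 334 higher (2.46%) and 261 lower (1.92%) at 24 h. On the B arrays 59 of 13507 were called (0.437%), 40 higher (0.296%) and 19 lower (0.141%). The values of the 3 arrays at each time did not overlap for 593 of the 595 A calls, and for 25.8% of all A probe sets tested (12.4% higher and 13.4% lower). On B they did not overlap for any of the 59 calls, and for 15% of all tested (7.42% higher and 7.6% lower). Among the A calls 128 rises and 72 falls exceeded a 2-fold change. The plot of change against level shows that the falls of Cyp1a1 and Smoc2 were the most extreme changes called on the A arrays.

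**Figure D1:**
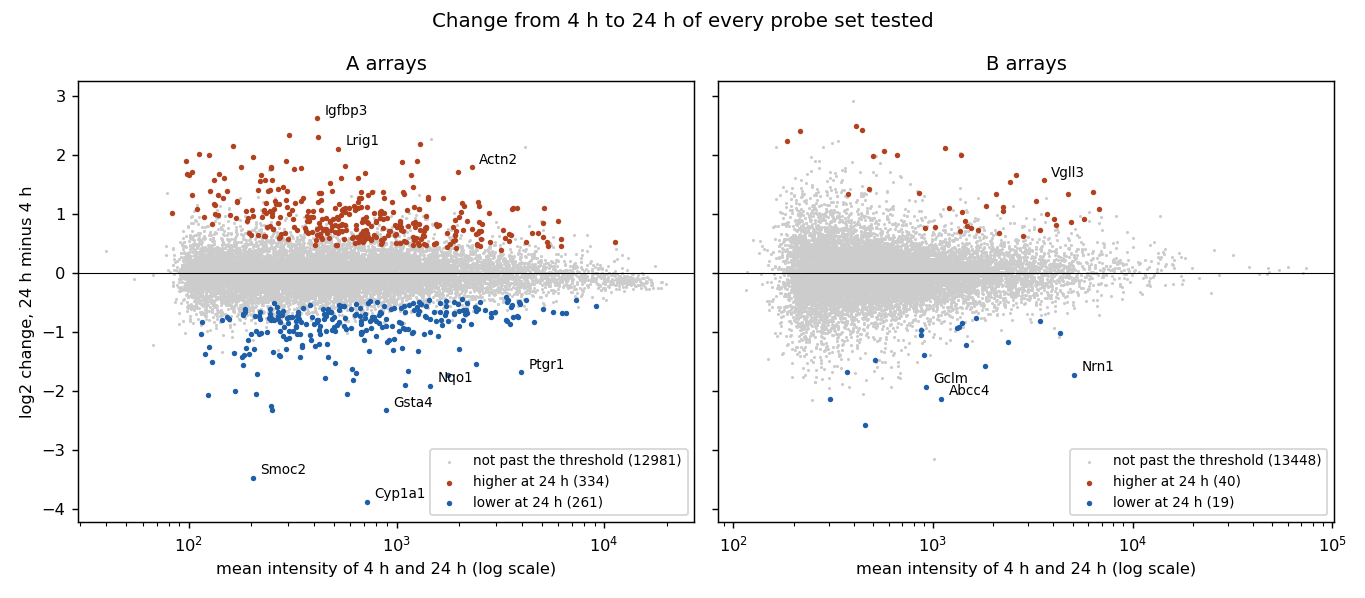
The log2 change from 4 h to 24 h (24 h minus 4 h, y axis) is plotted for every probe set tested against the mean intensity of the 4 h and 24 h arrays (x axis, log scale), with A arrays on the left and B arrays on the right. Coloured points passed limma's adjusted threshold, 334 higher and 261 lower on A and 40 higher and 19 lower on B. Cyp1a1 and Smoc2 lie lowest among the A calls.

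Genes of the AhR battery were the group that fell most completely. Of 8 measured, 7 fell, namely Ahr, Ahrr, Cyp1a1, Cyp1b1, Nqo1, Tiparp and Aldh3a1, and none rose. The median change of the 8 was -1.86, against 0.01 over all 12561 genes tested, of which 1.16% fell, 1.82% rose and 16.5% had an unadjusted p under 0.05. A list counts each gene once, by its probe set with the highest mean. All 7 falls were also called when any single array was left out.

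Cyp1a1, a cytochrome P450 that oxidises polycyclic aromatic compounds, had intensities of 1494, 1362 and 1251 at 4 h and 79.1, 81.2 and 71.8 at 24 h. All 3 arrays at 4 h were far above all 3 at 24 h, and the gene fell by 3.89 ± 0.24 on the log2 scale (limma adjusted p = 6.7e-07). Its mean at 12 h was 293 ± 103 and at 48 h 49.7 ± 13.3, so the decline went on past 24 h. Cyp1b1, a related cytochrome, went from 1904, 1540.1 and 1796 at 4 h and 428, 478 and 457 at 24 h (fell by 1.90 ± 0.17, limma adjusted p = 2.54e-05). The other A-array probe set of Cyp1b1 was also called lower. Ahrr encodes a repressor that competes with AhR for its partner, and its intensities were 216, 303 and 312 at 4 h and 54.5, 73.8 and 44.6 at 24 h. The groups did not overlap, and Ahrr fell by 2.00 ± 0.25 (limma adjusted p = 0.000541).

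The receptor gene itself, Ahr, had intensities of 1253, 1658 and 1340.0 at 4 h and 689, 762 and 736 at 24 h and fell by 0.93 ± 0.19 (limma adjusted p = 0.01). Tiparp, which encodes an ADP-ribosyltransferase that acts back on AhR, went from 607, 509 and 578 at 4 h and 269, 288 and 283 at 24 h (fell by 0.97 ± 0.14 in the probe set with the largest statistic, limma adjusted p = 0.00108). Its 2 other probe sets were called lower too. The quinone reductase Nqo1 went from 2328, 2119.5 and 2450.2 at 4 h and 774, 578 and 479 at 24 h, and fell by 1.91 ± 0.15. Aldh3a1, an aldehyde dehydrogenase, had 967, 831 and 1101 at 4 h and 298, 268 and 224 at 24 h and fell by 1.81 ± 0.27 (limma adjusted p = 0.00129). In each of these genes every array at 24 h lay below every array at 4 h.

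Promoter sequences are shown because these genes moved together and the letters that AhR is known to recognise are defined. The core of the xenobiotic response element was searched as GCGTG on both strands in the 250 bases before each start site in RefSeq's mouse genes (GRCm38.p6). Of the 7 genes that fell, 5 had a promoter entry and 4 of those held the core, against 28.2% of 32851 promoters of the same length. The list was drawn up from AhR and its known targets. A share above that of all promoters is therefore in part built into the choice of genes. The entry of Nqo1 had no match in this window. The 4 windows are printed 5′ to 3′ on the gene's strand with each match in capitals, where CACGC is the core on the opposite strand. They lie at chr9:57697363-57697612 (plus strand) for Cyp1a1, chr17:79715062-79715311 (minus strand) for Cyp1b1, chr13:74292332-74292581 (minus strand) for Ahrr and chr3:65528197-65528446 (plus strand) for Tiparp.
Cyp1a1: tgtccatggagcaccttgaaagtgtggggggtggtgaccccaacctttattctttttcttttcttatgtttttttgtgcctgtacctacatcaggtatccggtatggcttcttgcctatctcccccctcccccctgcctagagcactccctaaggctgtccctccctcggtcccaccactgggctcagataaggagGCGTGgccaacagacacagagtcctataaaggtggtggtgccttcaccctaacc
Cyp1b1: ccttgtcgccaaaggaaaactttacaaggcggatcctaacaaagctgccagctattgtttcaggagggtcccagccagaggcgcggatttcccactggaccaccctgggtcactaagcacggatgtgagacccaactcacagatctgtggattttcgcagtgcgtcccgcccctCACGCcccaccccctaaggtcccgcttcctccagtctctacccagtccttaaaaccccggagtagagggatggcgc
Ahrr: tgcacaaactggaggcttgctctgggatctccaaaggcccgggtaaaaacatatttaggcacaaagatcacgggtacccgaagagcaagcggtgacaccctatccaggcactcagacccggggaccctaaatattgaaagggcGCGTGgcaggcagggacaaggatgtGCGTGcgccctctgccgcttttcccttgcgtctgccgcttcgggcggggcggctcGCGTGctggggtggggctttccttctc
Tiparp: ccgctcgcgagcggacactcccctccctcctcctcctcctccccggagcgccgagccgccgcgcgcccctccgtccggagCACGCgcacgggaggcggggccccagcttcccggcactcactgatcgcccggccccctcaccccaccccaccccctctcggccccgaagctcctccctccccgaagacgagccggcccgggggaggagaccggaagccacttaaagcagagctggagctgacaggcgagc
The Ahrr window held 3 matches and the other windows 1 each. The match nearest the start site lay 50 bases before it in Cyp1a1, 72 in Cyp1b1, 23 in Ahrr and 166 in Tiparp. A match is a description of the letters, and binding was not measured.

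NRF2, antioxidant and glutathione genes fell in part. Of 34 measured, 13 fell and 1 rose, with a median change of -0.31. The falls covered the transcription factor gene Nfe2l2 itself, both subunits of the enzyme that starts glutathione synthesis (Gclc and Gclm), the redox enzymes Txnrd1, Srxn1, Hmox1 and Blvrb, the pentose phosphate enzyme Pgd, the glutathione transferases Gsta4, Gstm1 and Mgst1 and the export pumps Abcc1 and Abcc4. The other 20 members did not pass, and over the runs without 1 array 11 to 13 fell.

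Gclm, the regulatory subunit, was measured on both types. On the A arrays it had 1814, 1490.4 and 1879 at 4 h and 525, 595 and 488 at 24 h and fell by 1.66 ± 0.15 (limma adjusted p = 2.54e-05). A different Gclm probe set on the B arrays had 1773, 1167 and 1464 at 4 h and 312, 411 and 384 at 24 h and fell by 1.93 ± 0.23 (limma adjusted p = 0.00276). Neither type showed any overlap between the times. The catalytic subunit Gclc went from 1374, 1212 and 1227 at 4 h and 591, 641 and 490.4 at 24 h (fell by 1.13 ± 0.16, limma adjusted p = 0.000974).

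Gsta4, a glutathione transferase that handles products of lipid peroxidation, had the largest fall of the list, from 1585, 1598 and 1301 at 4 h and 299, 257 and 296 at 24 h (-2.33 ± 0.20, limma adjusted p = 1.85e-05). Abcc4, an export pump of the ABC family, followed on the B arrays with 1973, 1655 and 1742 at 4 h and 352, 573 and 299 at 24 h (-2.14 ± 0.21, limma adjusted p = 0.000903). Blvrb, biliverdin reductase B, fell by 1.43 ± 0.14 and Srxn1, which repairs oxidised peroxiredoxins, fell by 1.32 ± 0.15, with 1 of its 3 other probe sets positive. Smaller falls were those of Txnrd1 (thioredoxin reductase, -0.83 ± 0.12), Abcc1 (-0.75 ± 0.14), Pgd (-0.66 ± 0.10), Gstm1 (-0.62 ± 0.14) and Mgst1 (-0.98 ± 0.19).

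The Nfe2l2 transcript had 2315, 2286 and 2410.0 at 4 h and 1479, 1460.2 and 1437 at 24 h. The arrays of each time lay within a narrow range with a clear gap between times, and Nfe2l2 fell by 0.67 ± 0.10 (limma adjusted p = 0.00181). Hmox1, heme oxygenase 1, fell by 1.00 ± 0.25 but lost its call in 8 of 24 other settings. Gpx7, a peroxidase of the endoplasmic reticulum, was the only member that rose (1.17 ± 0.27), and it did not pass once replicate 2 of 4 h or replicate 1 or 2 of 24 h was dropped. Outside the list, Ptgr1, a reductase of prostaglandins and alkenals chosen after its values were seen, fell by 1.69 ± 0.13 from 6734, 5458 and 6065 at 4 h and 2083, 1871 and 1682 at 24 h (limma adjusted p = 8.17e-06).

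The core of the antioxidant response element was searched as TGACNNNGC on both strands in the same windows. Of the 13 genes that fell, 9 had a promoter entry and 5 held a match (Nfe2l2, Gclm, Txnrd1, Abcc4 and Mgst1), against 10.2% of all promoters. The 2 shares are unlike, since a gene counted if any of its entries matched and the background counts single promoters. Txnrd1 had 3 entries, with 0 matches in the first, and Abcc4 and Mgst1 had 2 each. This list, too, was drawn up from genes of the pathway, so a higher share is in part built in. The windows of Gclm, at chr3:122245307-122245556 (plus strand), and Abcc4, at chr14:118706220-118706469 (minus strand), are shown as the genes of the list measured lower on the B arrays, with the match in capitals on the opposite strand in both.
Gclm: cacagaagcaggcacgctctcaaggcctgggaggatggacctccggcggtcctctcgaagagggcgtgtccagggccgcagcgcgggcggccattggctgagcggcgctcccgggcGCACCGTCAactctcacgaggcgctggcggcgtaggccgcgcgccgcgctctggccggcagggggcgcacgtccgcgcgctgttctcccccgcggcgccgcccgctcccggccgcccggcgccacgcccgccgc
Abcc4: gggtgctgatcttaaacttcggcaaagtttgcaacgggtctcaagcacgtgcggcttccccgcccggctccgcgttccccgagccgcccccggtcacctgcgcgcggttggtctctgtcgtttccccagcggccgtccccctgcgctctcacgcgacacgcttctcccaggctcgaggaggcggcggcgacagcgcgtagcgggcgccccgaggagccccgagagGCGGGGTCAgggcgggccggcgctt
The match lay 126 bases before the start site in Gclm and 17 in Abcc4.

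**Figure D2:**
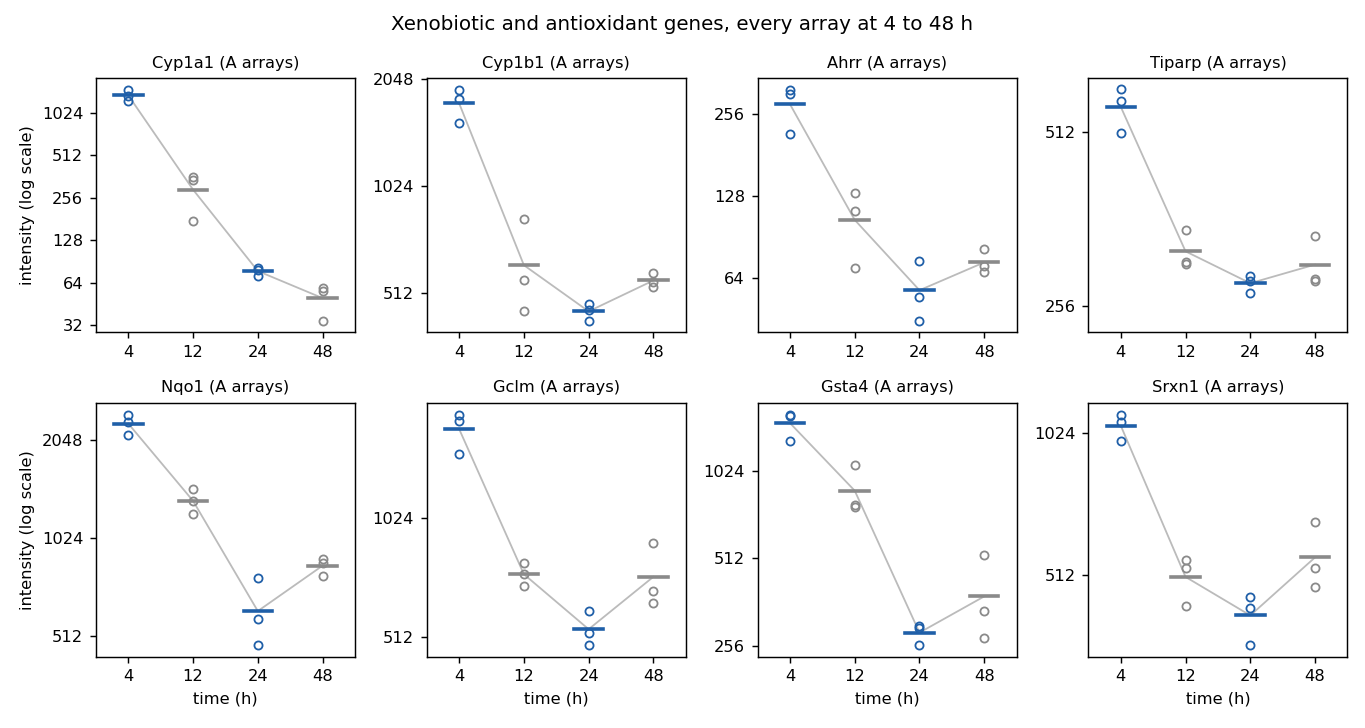
Intensity (y axis, log scale) of 8 genes of the AhR and NRF2 lists on every A array at 4, 12, 24 and 48 h (x axis), with circles for single arrays and bars for the mean of 3 arrays; the compared times are in blue. In all 8 genes the 24 h arrays lie below the 4 h arrays without overlap, and only Cyp1a1 has its lowest mean at 48 h.

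Inhibitors and subunits of NF-kB, a transcription factor of inflammatory signalling, fell in 4 of 13 cases with none rising and a median of -0.21. Nfkbia, which encodes the inhibitor IkB-alpha, had 4751, 5327 and 4337 at 4 h and 2727, 2662 and 3165 at 24 h and fell by 0.75 ± 0.11 (limma adjusted p = 0.00138), with 3 of its 4 other probe sets called lower. The subunit gene Nfkb2 fell by 0.91 ± 0.13 with no overlap in 1 probe set, while its other probe set was slightly positive and did not pass. The falls of Birc3 (-1.37 ± 0.37, limma adjusted p = 0.05) and of Nfkbie on the B arrays (-2.14 ± 0.42) were lost in 15 and 17 of 23 other settings. Leaving out 1 array left 1 fall of this list when it was replicate 2 or 3 of 4 h, replicate 1 or 2 of 12 h, replicate 1 or 2 of 24 h, or replicate 1 of 48 h. It left 2 for replicate 1 of 4 h and for replicates 2 and 3 of 48 h. The Nfkbia and Nfkb2 probe sets given above lost their call in 0 of 24 other settings. For the list, Nfkbia is counted by another of its probe sets, the one with the highest mean.

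Part of the contractile apparatus rose. Over 5 lists of sarcomeric proteins 12 of 54 measured genes rose and none fell. The change was above 0 in 44 of the 54, with a median of 0.50. Among the myosin heavy chains, the motors of the thick filament, perinatal Myh8 and slow Myh7 rose. Myh8 had 484, 394 and 414 at 4 h and 1852, 2084 and 1126 at 24 h and rose by 1.89 ± 0.24 (limma adjusted p = 0.000565). Myh7 had 295, 252 and 216 at 4 h and 910.4, 1026 and 552 at 24 h (1.61 ± 0.22, limma adjusted p = 0.000968). In both genes 24 h replicate 3 was the lowest of its time and still above every 4 h array. Embryonic Myh3 (0.64 ± 0.19, limma adjusted p = 0.0732) and adult fast Myh1 (0.58 ± 0.31, limma adjusted p = 0.34) did not pass.

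Proteins of the thin filament and of the Z-disc, which anchors it, gave 6 of the 12 rises. Actn2, the muscle alpha-actinin that crosslinks actin there, had 918, 1075 and 985 at 4 h and 4108, 4444 and 2305 at 24 h and rose by 1.80 ± 0.23 (limma adjusted p = 0.000629). Its fast-fibre relative Actn3 rose by 1.29 ± 0.25. Myoz2, which links calcineurin to the Z-disc, had 610.3, 669 and 569 at 4 h and 2004, 2172 and 1152 at 24 h and rose by 1.45 ± 0.20 (limma adjusted p = 0.000968). The LIM protein Csrp3 (0.94 ± 0.16), Smpx (1.13 ± 0.22) and the actin-binding Cap2 (0.83 ± 0.21) completed the set. The call of Cap2 was lost in 7 of 24 other settings. Ldb3, a Z-disc scaffold counted by another probe set, rose by 1.10 ± 0.19 in the probe set with the largest statistic.

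The fast troponins Tnnc2 (1.10 ± 0.19) and Tnni2 (1.10 ± 0.24), the calcium switch of the thin filament, the light chain Myl1 (0.53 ± 0.12) and the myosin-binding protein gene Mybph (0.88 ± 0.19) also rose. Tnnc2 had 3522, 3042 and 2947 at 4 h and 7986, 8559 and 4625 at 24 h, again with 24 h replicate 3 nearest to the 4 h arrays. Tnnt3 (0.89 ± 0.25, limma adjusted p = 0.0627), Tpm2 (0.60 ± 0.17, limma adjusted p = 0.0666), Myl4 (0.42 ± 0.14) and Mylpf (0.31 ± 0.16) did not pass. Without 24 h replicate 3 the count of contractile genes that rose was 17. Leaving out replicate 1 of 24 h gave 8 and replicate 2 gave 7, and any other array 11 to 15.

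Proteins that respond to load or carry LIM domains moved with them. Of 12 measured 4 rose, and all 12 changes were above 0, with a median of 0.75. Lmcd1, a LIM protein that acts on calcineurin signalling, had 112, 182 and 99.1 at 4 h and 747, 867 and 509 at 24 h and rose by 2.30 ± 0.24 (limma adjusted p = 8.79e-05). On the B arrays Klhl30, a kelch family gene, had 1016, 1455 and 1171 at 4 h and 4047, 4199.5 and 2644 at 24 h and rose by 1.55 ± 0.19 (limma adjusted p = 0.00276). Fhl1 (1.07 ± 0.19, with a second probe set of opposite sign) and Csrp1 (0.81 ± 0.14) rose as well, and Limch1 rose in the A probe set with the largest statistic (1.39 ± 0.19).

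Genes of the triad, where the surface membrane meets the calcium store, all had positive changes, 19 of 19, with a median of 0.65. By the probe set with the highest mean only Casq1 and Atp2a1 passed. Another probe set of Jph2 rose by 0.64 ± 0.15 (limma adjusted p = 0.0243) and lost its call in 5 of 24 other settings. Casq1, the calcium-binding protein of the store, had 133, 489 and 181 at 4 h and 702, 736 and 641 at 24 h and rose by 1.53 ± 0.37 (limma adjusted p = 0.0305). Its 4 h replicate 2 value stood well above the other 4 h values and still below every 24 h array. The calcium pump Atp2a1 rose by 0.90 ± 0.24 (limma adjusted p = 0.0421). Of 24 other settings Casq1 was not called in 8 and Atp2a1 in 10. The gene of sarcalumenin, a protein of the store, Srl, had 10752, 7329.6 and 9424 at 4 h and 19929, 22672 and 12339.6 at 24 h on the B arrays and did not pass (0.97 ± 0.25, limma adjusted p = 0.13). By the list count no triad gene passed without replicate 1 or 3 of 4 h, or replicate 1 or 2 of 24 h. Without replicate 1 of 48 h 1 gene passed, and 7 did when replicate 3 of either 12 h or 24 h was dropped.

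Muscle isoforms of energy metabolism rose in 5 of 15 cases and none fell by the probe set with the highest mean, with a median of 0.83. Another probe set of Ldhb, the heart-type lactate dehydrogenase subunit, fell from 296, 384 and 234 at 4 h and 125, 139 and 154 at 24 h (-1.02 ± 0.19, limma adjusted p = 0.00718), and its 3 other probe sets were also negative without passing. Cox6a2, the muscle form of a cytochrome oxidase subunit, had 563, 483 and 589 at 4 h and 2085, 2046 and 1258 at 24 h and rose by 1.66 ± 0.25 (limma adjusted p = 0.00129). Cox8b rose by 1.38 ± 0.33, the oxygen store myoglobin, Mb, by 1.19 ± 0.22, the glycolytic Pgam2 by 1.27 ± 0.26 and glycogen phosphorylase Pygm by 1.16 ± 0.24. Creatine kinase, Ckm, had 934, 315 and 1041 at 4 h and 2364, 1874 and 1152 at 24 h and did not pass (1.33 ± 0.60, limma adjusted p = 0.245). Dropping replicate 1 of 24 h left 2 of these rises, dropping replicate 2 of 24 h or replicate 1 of 4 h left 3, and dropping replicate 3 of 24 h left 5. Subunits of oxidative phosphorylation had 0 of 50 past limma's threshold in either direction, 5 at an unadjusted p under 0.05 (16.5% of all genes) and a median of 0.05. Whether the muscle isoforms and these subunits differ in response was not tested.

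**Figure D3:**
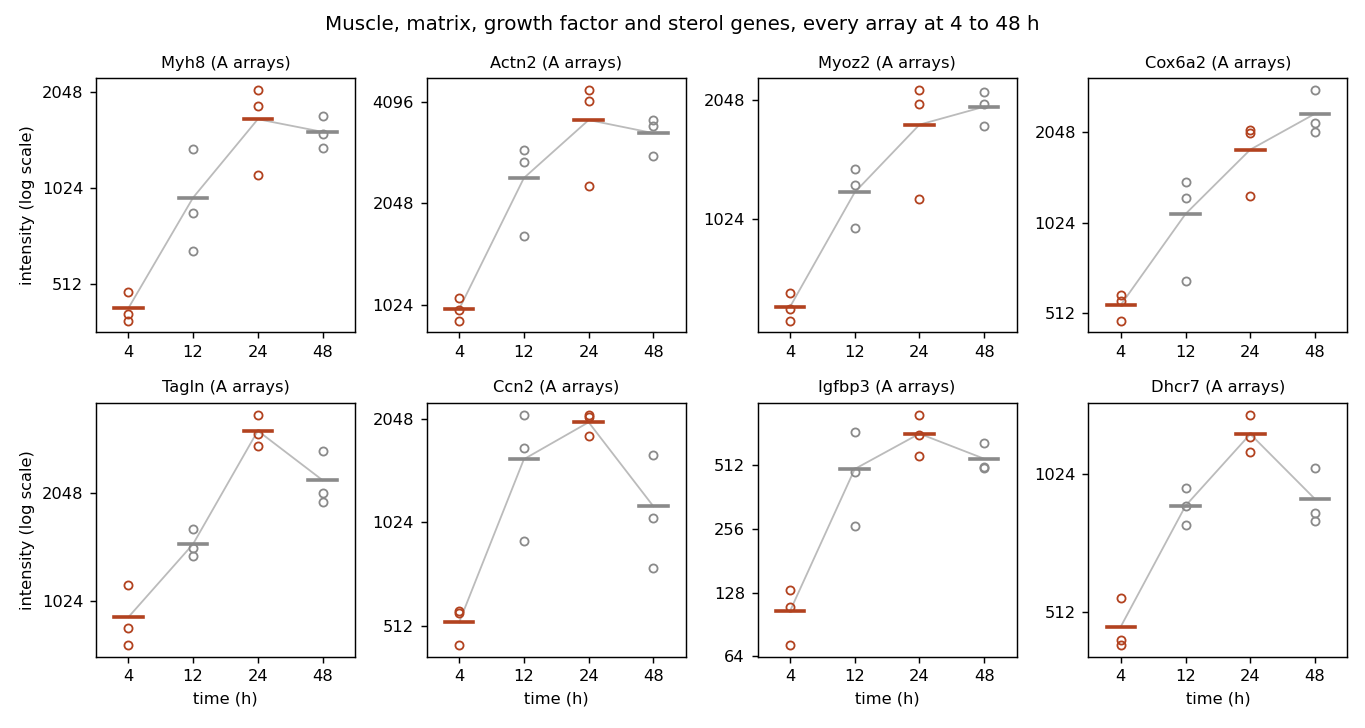
Intensity (y axis, log scale) of 8 genes that rose on every A array at 4, 12, 24 and 48 h (x axis), with circles for single arrays and bars for the mean of 3 arrays; the compared times are in red. The 24 h arrays lie above the 4 h arrays in all 8 genes, and in Myh8, Actn2, Myoz2 and Cox6a2 the lowest 24 h value is that of replicate 3.

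Of 13 genes in the dystrophin list only Cav3, the muscle caveolin, was called by its probe set with the highest mean. Cav3 rose by 1.20 ± 0.30 (limma adjusted p = 0.0359) and was not called in 6 of 24 other settings. Another probe set of Dtna (0.66 ± 0.16), of Capn3 (0.96 ± 0.24) and of Dag1 (0.79 ± 0.21) rose too. These lost their calls in 4, 7 and 15 of 24 other settings. The adhesion molecule Ncam1, the only call of 12 neuromuscular junction genes, rose in 1 probe set (0.80 ± 0.19), while 3 of its 4 other probe sets were negative and none passed. Fxyd6, a regulator of the sodium pump, had 74.4, 176 and 68.8 at 4 h and 503, 427 and 240.3 at 24 h and rose by 1.77 ± 0.30, whereas the pump subunit Atp1b1 had 1660.2, 1084 and 1645 at 4 h and 849.8, 635 and 739 at 24 h and fell by 0.95 ± 0.18, with its 3 other probe sets called lower too. In RNA taken from many cells together, fewer cells of a type and less RNA per cell cannot be told apart.

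The factors that commit cells to the muscle fate gave no call. Of 6 measured myogenic regulators and Pax genes none passed in limma. By the probe set with the highest mean none had an unadjusted p under 0.05, though another probe set of Pax3 changed by -0.79 ± 0.33 (unadjusted p = 0.0300 and adjusted p = 0.208 in limma). Myog changed by 0.05 ± 0.21 and Myod1 by -0.11 ± 0.15. The sign of Myog turned on dropping replicate 2 of 4 h or replicate 1 or 2 of 24 h, and that of Myod1 on dropping replicate 1 of 4 h. Pax7, the marker of satellite cells, the muscle stem cells, changed by -0.35 ± 0.19 (limma adjusted p = 0.341). Mef2c, a cofactor of the myogenic factors, rose by 0.71 ± 0.16 in 1 of its 5 probe sets, and Cxcr4, a chemokine receptor of satellite and other cells, fell from 1028, 879 and 1041 at 4 h and 223, 285 and 392 at 24 h (-1.69 ± 0.25, limma adjusted p = 0.00125). Cxcr4 was the only call of 6 satellite cell markers measured. By the probe set with the highest mean 4 of the 6 changes were above 0 and 2 below, with a median of 0.15.

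Id proteins, inhibitors of those factors, fell. They bind the partners of myogenic factors and block them, and are induced by bone morphogenetic proteins (BMPs). Of 16 genes in the Id and BMP list 5 fell and 1 rose, with a median of -0.17. Id3 had 3465, 3854 and 3471 at 4 h and 1125, 1062 and 1517 at 24 h and fell by 1.55 ± 0.18 (limma adjusted p = 0.000244). Id2 had 1117, 1655 and 1372 at 4 h and 576, 542 and 509 at 24 h and fell by 1.31 ± 0.21 (limma adjusted p = 0.00255). Neither gene showed overlap between the times, and both had lower means still at 48 h (879.8 and 333). Id1 fell by 0.69 ± 0.18 and lost that call in 10 of 24 other settings. Atoh8 (-1.43 ± 0.30) and the BMP antagonist Grem1 (-1.20 ± 0.20) fell too, while Fstl3, an antagonist of activin, rose by 1.71 ± 0.33 from low values. Only 3 fell when replicate 2 or 3 of 4 h or replicate 2 of 24 h was dropped.

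Smooth muscle and pericyte markers, which are also expressed by activated fibroblasts and young muscle cells, rose in 6 of 13 cases and none fell, with a median of 0.70. The change was above 0 in 9 of the 13 and below 0 in 4. Tagln, an actin-binding protein, had 864, 1138 and 774 at 4 h and 2771, 3376 and 2987 at 24 h and rose by 1.71 ± 0.16 (limma adjusted p = 2.54e-05). Cnn2, a calponin, rose by 0.85 ± 0.10, the smooth muscle actin Actg2 by 1.28 ± 0.16, Smtn by 0.77 ± 0.17, the growth factor receptor Pdgfrb by 1.00 ± 0.15 and the adhesion molecule Mcam by 1.77 ± 0.31. Myl9, a regulatory light chain of smooth muscle and nonmuscle myosin, was not on the list and had 583, 214 and 583 at 4 h and 1416, 1594 and 3357 at 24 h (2.18 ± 0.35, limma adjusted p = 0.00218). All 24 h arrays were above all 4 h arrays in each of these genes. In Myl9 the 24 h replicate 3 array stood far above the other 24 h arrays and the 4 h replicate 2 array far below the other 4 h arrays, and the gene passed without either.

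The summed intensity of the 18 smooth muscle and pericyte markers ran from 20095 to 27019 on the A arrays at 4 h and from 32112 to 34554 at 24 h. On the B arrays the 4 of these markers matched there summed to 4096 to 6596 at 4 h and 4852 to 5976 at 24 h, which overlap. The A-array sums of the skeletal lineage markers ran from 52351 to 82663 at 4 h and from 65282 to 87363 at 24 h. Des is on both lists. Of the defining smooth muscle markers Myh11, Cnn1 and Lmod1 lay below the filter on the A arrays. Fibroblast markers summed to between 6123 and 7109 at 4 h and between 6719 and 7723 at 24 h. The part of these cell types in the rises of muscle, matrix or cytoskeletal genes was not tested.

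Extracellular matrix genes changed in both directions, with 12 of 77 rising and 4 falling over 5 lists and a median of 0.17. Secreted matricellular proteins, which signal from the matrix, gave 4 rises of 13. Ccn2, connective tissue growth factor, had 449.6, 565 and 556 at 4 h and 1820.2, 2072 and 2103 at 24 h and rose by 1.90 ± 0.27 (limma adjusted p = 0.00121). Its relatives Ccn1 (1.03 ± 0.17) and Ccn4 (1.27 ± 0.18) and periostin, Postn (1.67 ± 0.31), rose too, and the proteoglycan Vcan fell by 0.89 ± 0.17. Of the 3 other probe sets of Ccn1 and of Vcan 1 each had the opposite sign. Ccn4 had 1024, 816 and 1074 at 4 h and 2038, 2248 and 2806 at 24 h, with no overlap.

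Collagens rose in 2 of 26 cases, Col5a1 (1.12 ± 0.15) and Col6a2 (1.38 ± 0.30), and the cartilage collagen Col2a1 fell by 1.35 ± 0.26. The abundance of Col1a1 differed between the times without passing (42, 43.3 and 69.7 at 4 h and 159, 102 and 209.9 at 24 h, 1.33 ± 0.37, limma adjusted p = 0.0548). Enzymes and proteins of elastic fibres were represented by Loxl1, a crosslinking enzyme, with 1756, 1236 and 1703 at 4 h and 3202, 3344 and 3711 at 24 h (1.13 ± 0.14, limma adjusted p = 0.000315), and by Fbln5 (1.27 ± 0.21). The proteases Adamts5 (1.80 ± 0.22) and Adamts1 (1.58 ± 0.25) rose and Mmp11 (-0.76 ± 0.17) fell.

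Smoc2, a secreted calcium-binding protein of the basement membrane, had 348, 454 and 347 at 4 h and 36.2, 2.6 and 30.3 at 24 h. All 24 h arrays were at or near the bottom of the intensity range, so its fall of 3.48 ± 0.50 on this scale depends on the pseudocount (limma adjusted p = 0.00121). It was -4.56 with a pseudocount of 1 and -2.37 with 64, and passed with both. Nid2 (0.64 ± 0.14) and Sparc (0.57 ± 0.14), other basement membrane genes, rose. Sparc lost its call in 10 of 24 other settings. Over the runs without 1 array the matrix lists gave 9 to 15 rises and 3 to 5 falls.

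Growth factor genes of the insulin-like growth factor system included the largest non-overlapping rise called on the A arrays. Igfbp3, a carrier protein that binds IGFs, had 132, 109 and 72 at 4 h and 716, 892 and 566 at 24 h and rose by 2.63 ± 0.29 (limma adjusted p = 0.000161). A separate Igfbp3 probe set on the B arrays had 1231, 1362 and 1118 at 4 h and 3580.1, 4646 and 3719 at 24 h and rose by 1.67 ± 0.14 (limma adjusted p = 0.000231). Both types thus showed the rise with no overlap. Igf1 rose by 1.00 ± 0.20 in 1 of 4 probe sets, 2 of whose others were positive, and Igf2 by 1.11 ± 0.23. Pappa, which encodes a protease that cleaves IGF carriers, changed by 1.72 ± 0.48 and did not pass (limma adjusted p = 0.166). By the probe set with the highest mean, 1 of 16 genes of the system rose and none fell.

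Feedback inhibitors of growth factor signalling rose in 3 of 21 cases and none fell. Lrig1, a membrane protein that restrains receptor tyrosine kinases, had 162, 202 and 198 at 4 h and 838, 789.8 and 944 at 24 h and rose by 2.11 ± 0.15 (limma adjusted p = 4.16e-06). Spry1, an inhibitor of the ERK pathway, had 701, 404 and 707 at 4 h and 1625, 1461 and 1528 at 24 h (1.37 ± 0.19, limma adjusted p = 0.000921), and the phosphatase Dusp14 rose by 0.86 ± 0.18. Of 28 immediate early genes 4 rose, Fos (0.96 ± 0.21), Ier2 (0.61 ± 0.15) and the Ccn1 and Ccn2 already described, with a median of 0.31. Dropping replicate 2 of 4 h, or replicate 1 or 2 of 24 h, left 2 of these rises.

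Enzymes of sterol and fatty acid synthesis rose in 11 of 24 cases and none fell. All 24 changes were above 0, with a median of 0.47. Dhcr7, which makes the last step of cholesterol synthesis, had 549, 434 and 446 at 4 h and 1144, 1382 and 1233 at 24 h and rose by 1.37 ± 0.14 (limma adjusted p = 0.000101). Lss, lanosterol synthase, had 502, 554 and 565 at 4 h and 1148, 1114 and 1142 at 24 h (1.05 ± 0.18, limma adjusted p = 0.00372), and the demethylase Cyp51 rose by 0.72 ± 0.14. Mvk (1.05 ± 0.25), Sc5d (0.73 ± 0.16), Msmo1 (0.74 ± 0.20), Fdps (0.46 ± 0.11), the desaturases Scd1 (0.65 ± 0.16) and Scd2 (0.46 ± 0.10), Acly (0.40 ± 0.10) and the B-array gene Insig1 (0.62 ± 0.12) made up the rest. In each of the 11 genes the times did not overlap. Of 24 other settings, Insig1 was not called in 17, Acly and Msmo1 in 14 and Fdps in 8. The second probe set of Msmo1 and 1 of the 3 other probe sets of Acly were negative. With median scaling 5 genes of the list rose, with no filter on low values 6, with a filter at the 20th percentile 7 and without the variance trend 4.

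Dropping any one of the 4 h arrays left 4 rises among these genes. Of the 24 h arrays, dropping replicate 2 left 4, replicate 3 left 5 and replicate 1 left 6. Dropping replicate 1 of 12 h or of 48 h left 7, and any other array 10 to 12. None of the 8 rising genes with a promoter entry held the sterol regulatory element searched as TCACNCCAC on both strands, which 1.05% of promoters of this length hold.

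Genes that handle fatty acids for oxidation went the other way in part. Pdk4, a kinase that turns off pyruvate oxidation, had 1011, 880.0 and 926 at 4 h and 204, 199.5 and 239.7 at 24 h and fell by 2.05 ± 0.19 (limma adjusted p = 3.04e-05). Cpt1a, which admits fatty acids to mitochondria, had 1699, 1688 and 2076 at 4 h and 884, 905 and 851 at 24 h and fell by 1.03 ± 0.13 (limma adjusted p = 0.000533). The fatty acid transporter Cd36 rose by 1.19 ± 0.23. Fabp3, a muscle fatty acid carrier, had 169, 365 and 175 at 4 h and 1072, 1159 and 451 at 24 h in its A probe set with the largest statistic (1.82 ± 0.31). By the probe set with the highest mean 1 of 22 genes rose and 2 fell, with a median of -0.01.

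**Figure D4:**
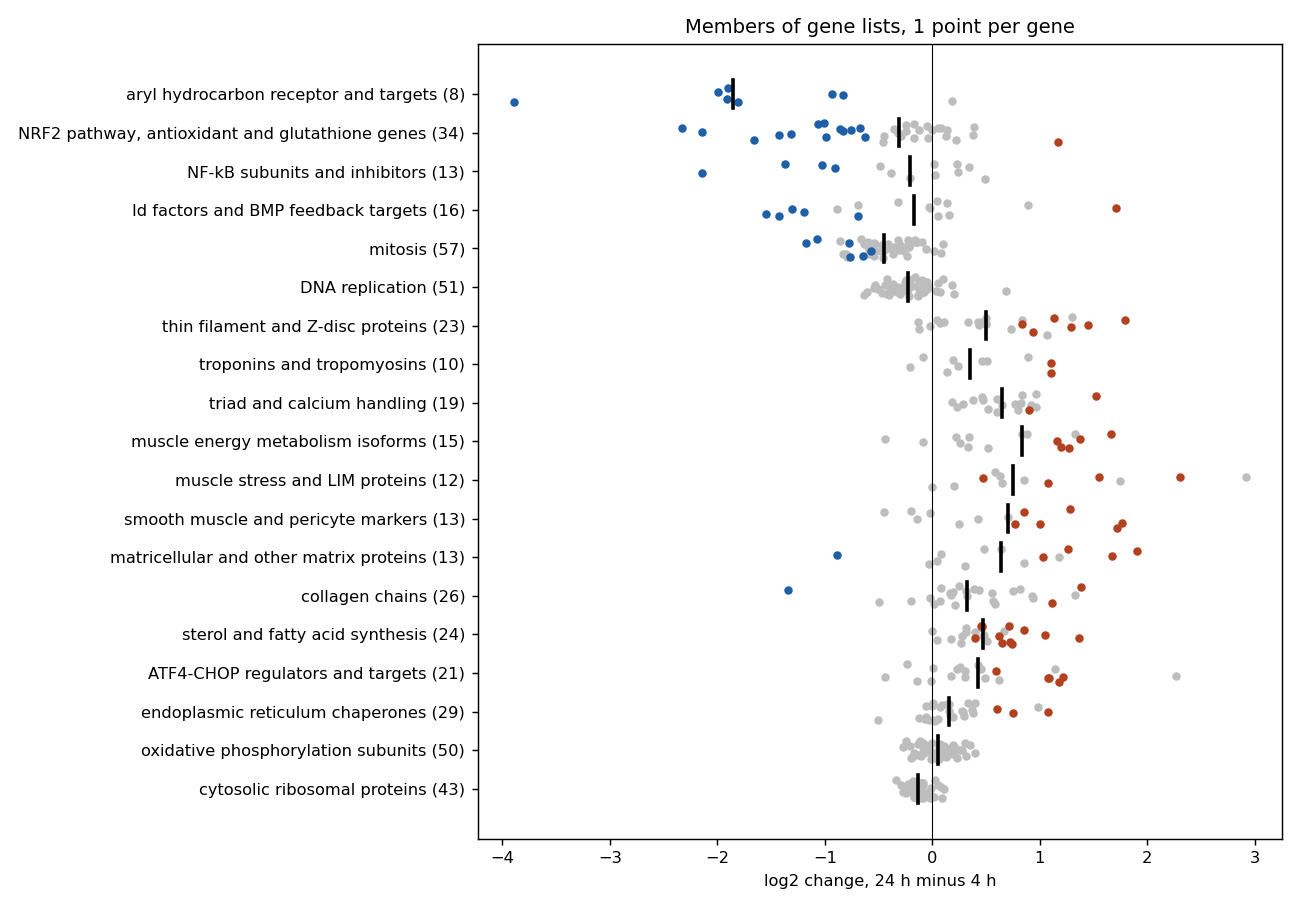
Log2 change from 4 h to 24 h (x axis) of every measured member of 19 gene lists (y axis, number of measured genes in brackets), 1 point per gene by its probe set with the highest mean. Red and blue points passed limma's threshold as higher or lower at 24 h, and black bars are medians. The AhR list lies farthest to the left, with a median of -1.86, and the muscle energy isoforms farthest to the right, with a median of 0.83.

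Regulators of the amino acid response, in which ATF4 and CHOP turn on genes of amino acid supply, rose in 10 of 75 cases over 4 lists and none fell, with a median of 0.24. Trib3, a pseudokinase induced by ATF4, had 122, 170.4 and 123 at 4 h and 355, 327 and 313 at 24 h and rose by 1.18 ± 0.16 (limma adjusted p = 0.000695). The transcription factor gene Atf5 had 898, 705 and 835 at 4 h and 1786, 1887 and 1557 at 24 h (1.09 ± 0.16, limma adjusted p = 0.00121), and Chac1, a glutathione-degrading enzyme, rose by 1.21 ± 0.18. Nupr1 (1.08 ± 0.21), the folate enzyme Mthfd2 (0.83 ± 0.14), asparagine synthetase Asns (0.71 ± 0.17) and the transporter Slc7a5 (0.68 ± 0.15) rose as well. The mean of Trib3 went on to 1880.3 at 48 h. Dropping replicate 3 of 4 h left 5 rises, and dropping replicate 1 or 2 of 24 h left 6 or 4.

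Chaperones of the endoplasmic reticulum, which fold secreted proteins, rose in 3 of 29 cases, Sdf2l1 (1.07 ± 0.17), Creld2 (0.75 ± 0.14) and Manf (0.60 ± 0.13), with a median of 0.15. Sdf2l1 had 261, 241 and 316 at 4 h and 595, 689.6 and 495 at 24 h, with no overlap. Of 32 heat shock genes the small muscle forms Hspb2 (1.21 ± 0.29), Hspb3 (1.04 ± 0.22) and Hspb7 (1.05 ± 0.23) rose and Hspa1b (-0.90 ± 0.22) fell. None of the 3 small forms passed once replicate 1 or 2 of 24 h was dropped, and 1 passed once replicate 2 of 4 h was. Hspa1b did not pass in any of those runs.

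Part of the genes of mitosis fell. Of 57 measured 6 fell, none rose, and 54 had a change below 0, with a median of -0.45. Nusap1, a spindle protein, had 1042, 1205 and 1006 at 4 h and 477, 436 and 626 at 24 h and fell by 1.07 ± 0.19 (limma adjusted p = 0.00476). Incenp, of the chromosomal passenger complex, fell by 0.78 ± 0.16, Hmmr by 0.86 ± 0.19, the condensin subunit Ncapd2 by 0.57 ± 0.15, topoisomerase Top2a by 0.65 ± 0.17 and, on the B arrays, the checkpoint kinase Bub1b by 1.18 ± 0.23. Of 24 other settings, Bub1b was not called in 16, Top2a in 14 and Ncapd2 in 9. The second probe set of Ncapd2 and 1 of the 4 others of Hmmr were positive. With median scaling, no filter or no variance trend 3 genes of the list fell, with a filter at the 20th percentile 4, and with array weights 22. The mean of the mitosis genes was highest at 4 h on replicate 2, at 0.48 above their 12-array mean against 0.25 and 0.26, and at 24 h it was -0.22, -0.18 and 0.03.

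The number of mitosis genes that fell depended on single arrays. Among the 4 h arrays, dropping replicate 1 or 2 left 2 falls and replicate 3 left 4. Among the 24 h arrays, dropping replicate 1 left 2, replicate 2 left 1 and replicate 3 gave 13. Dropping replicate 3 of 12 h gave 14, and dropping replicate 1 or 3 of 48 h gave 3 or 4. Genes of DNA replication had 0 of 51 past limma's threshold, 14 at an unadjusted p under 0.05, where 16.5% of all genes lay, and 44 changes below 0, with a median of -0.23. Geminin, Gmnn (-0.60 ± 0.17, limma adjusted p = 0.0557), Rrm1 (-0.37 ± 0.11) and Mcm7 (-0.68 ± 0.21) were among those that did not pass. Ccnd3, a D cyclin of differentiating muscle, rose by 0.53 ± 0.14 and was not called in 10 of 24 other settings, and its B-array probe set was slightly negative. The cell cycle inhibitor Cdkn1a changed by 0.73 ± 0.23 (limma adjusted p = 0.0896).

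**Figure D5:**
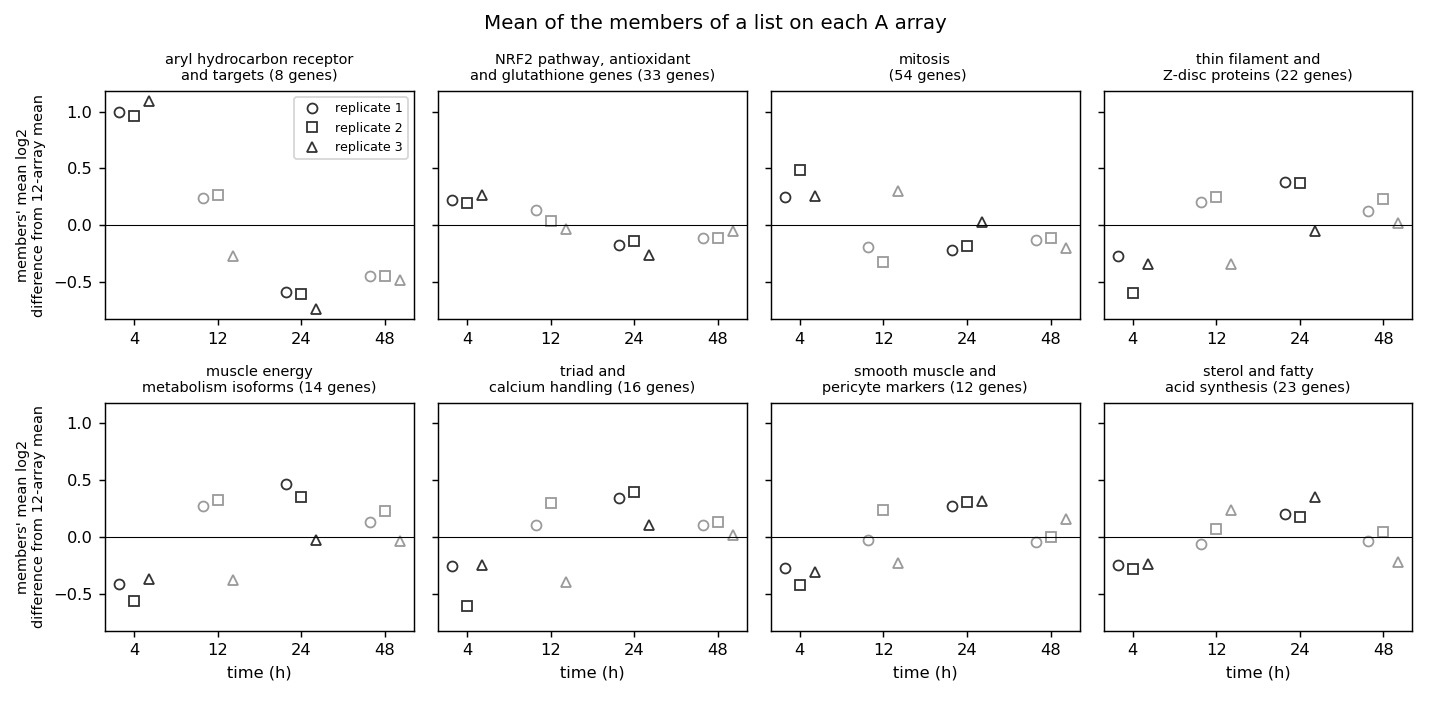
Mean log2 difference of the members of 8 lists from their own mean over the 12 A arrays (y axis) on each A array at 4, 12, 24 and 48 h (x axis), with a symbol for each replicate number. In the AhR and NRF2 lists every 4 h array lies above every 24 h array. In the mitosis, Z-disc, energy and triad lists 24 h replicate 3 and 12 h replicate 3 lie apart from the other arrays of their time, and 4 h replicate 2 is the extreme 4 h array.

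Further genes with the largest changes lay outside these groups. Edn1, the vasoconstrictor endothelin 1, had 72.9, 68.1 and 19.7 at 4 h and 261, 283 and 269.6 at 24 h and rose by 2.16 ± 0.32. The stress and hypoxia gene Ndrg1 had 42.6, 27.9 and 31.3 at 4 h and 133, 182 and 256 at 24 h (2.02 ± 0.33, limma adjusted p = 0.00287), and its mean reached 522 at 48 h. Other rises of this size were those of Spsb1 (2.01 ± 0.33), the phosphodiesterase Pde2a (1.91 ± 0.28), the transcriptional cofactor Cited1 (1.91 ± 0.35) and Clasrp (1.97 ± 0.42), most from 4 h intensities near or below the filter value of 101, where this scale understates log2 changes.

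Falls of similar size were those of Rgs4, a brake on G-protein signalling, with 368, 304 and 367 at 4 h and 72, 41.8 and 114 at 24 h in its probe set with the largest statistic (-2.05 ± 0.30, limma adjusted p = 0.00125). The metal-binding Mt2 had 3149, 3232 and 1896 at 4 h and 720.1, 906 and 768 at 24 h (-1.74 ± 0.23, limma adjusted p = 0.000621), and the related Mt1 fell by 0.90 ± 0.22. Tafa5, a secreted protein gene, fell by 1.79 ± 0.34 and the hormone gene Sct by 1.72 ± 0.43, which lost its call in 5 of 23 other settings.

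On the B arrays the largest rises were those of Tekt5, Enho, D6Ertd474e, Fam20a and Ifi27. Tekt5, a tektin gene, had 41, 148 and 196 at 4 h and 672, 821 and 598 at 24 h (2.49 ± 0.42, limma adjusted p = 0.0248), and Enho, which encodes a secreted peptide, had 57.2, 164 and 164 at 4 h and 910.0, 971 and 390.2 at 24 h (2.43 ± 0.42, limma adjusted p = 0.0269). They were not called in 5 and 6 of 24 other settings. D6Ertd474e (2.41 ± 0.48), Fam20a (2.23 ± 0.44) and Ifi27 (2.13 ± 0.42) lost their calls in 17 of 23, 18 of 22 and 16 of 24 other settings.

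Vgll3, a cofactor of TEAD transcription factors chosen after its values were seen, rose in each of its 3 B-array probe sets, by 1.33 ± 0.15 in the one with 2481, 2471 and 3111 at 4 h and 5499.8, 7505 and 7494 at 24 h (limma adjusted p = 0.00234). Nrn1, a neuritin gene, fell on the B arrays from 6486, 10490.0 and 6672 at 4 h and 2512, 1983 and 2467 at 24 h (-1.73 ± 0.21, limma adjusted p = 0.00292). Every 24 h array was below every 4 h array. Rps6ka6, a kinase gene, fell by 2.57 ± 0.49 and lost its call in 14 of 24 other settings.

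The values at 12 h and 48 h are given as a description. The 12 h mean lay between the 4 h and 24 h means for 97.3% of the A probe sets that rose and 91.6% of those that fell. At 12 h the median rise had reached 53.2% of its 24 h log2 change and the median fall 57.2%. On the B arrays these were 70.2% and 47.1%. By 48 h the means of 221 of the 334 rises and 194 of the 261 falls on the A arrays had moved back toward their 4 h level. The calls were chosen for a wide gap between 4 h and 24 h, so a mean inside that gap at 12 h and a return at 48 h are in part built into the choice, and neither was tested.

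The array types were compared where they measured the same thing. For 100 probe sets tested on both types Pearson's r between the changes, taken over probe sets, was 0.638 and Spearman's rho 0.629, and 77 had the same sign. These are not independent replicates, and A and B arrays may hold the same RNA. Of 122 genes called on A that also had a B probe set tested, 92 had the same sign on B and 7 were called there in the same direction.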

How the data were processed

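The deposited intensities, 1 linear value per probe set, were used as deposited. The labels name the standard protocol of Affymetrix, on total RNA. No software, background correction or summary method is given in these sources. As the trimmed mean is fixed on every array, all changes are relative to the array, and A and B levels were not set against each other.

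Control probe sets and those with a mean over 12 arrays under the 40th percentile (101 on A, 198 on B) were left out. limma 3.58.1 in R 4.3.3 (lmFit, eBayes with an intensity trend) fitted 1 mean per time to log2 of intensity plus 16 over the 12 arrays of a type at 4, 12, 24 and 48 h, with 8 residual degrees of freedom. P-values were adjusted within a type. Probe sets were named from the platform annotation where it gave 1 symbol (20393 on A, 14674 on B), with symbols updated by Entrez identifier. A gene counted in a list by its probe set with the highest mean on either type. Because the types were scaled apart, counting the A probe set first was added as an alternative after seeing the data, as was counting any probe set.

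The comparison, the 59 lists and the named genes were chosen with earlier results of these data known. Genes were named as the 12 largest called, non-overlapping changes each way on A and the 5 largest on B, and up to 4 members of each list by moderated statistic. Other named genes (Abcc1, Acly, Actn3, Ahr, Atoh8, Birc3, Cap2, Cox8b, Fdps, Fhl1, Gclc, Gpx7, Gstm1, Hes1, Hmmr, Hmox1, Id1, Mgst1, Msmo1, Mvk, Ncapd2, Nfe2l2, Pgam2, Pgd, Postn, Ptgr1, Sc5d, Scd1, Scd2, Smpx, Smtn, Srxn1, Tiparp, Top2a, Txnrd1 and Vgll3) were picked with their values in view.

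Tested on simulated arrays, on A the model recovered 75.5% of 2-fold and 100% of 4-fold changes (log2 of 1 and 2) and 7.1% of its calls were false. On B these were 52.1%, 88.2% and 9.03%. The simulation drew each probe set independently, without differences shared by many genes of an array. These rates therefore need not hold for the real arrays. Alternatives were quantile and median scaling, other pseudocounts and filters, no trend, other sets of arrays, array weights, the replicate number as a block and each array left out. Sequences are from RefSeq (GRCm38.p6). Figures used matplotlib 3.10.9.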

Additional observations from a re-analysis of the deposited data

How the results depend on the processing

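On the A arrays the 595 calls became 1932 with array weights and 254 to 765 without 1 array. The lowest counts came from dropping replicate 2 (254) or 1 (279) of 24 h and replicate 1 (354), 3 (369) or 2 (383) of 4 h. Every other setting on A gave 423 to 604, and 402 of the 423 calls with no filter on low values were among the 595. On the B arrays the 59 calls became 32 with median scaling, 13 with no filter on low values, 32 with a filter at the 20th and 89 with one at the 60th percentile, 12 without the variance trend, 9 with only the 4 h and 24 h arrays and 121 with array weights. Without 1 array they ranged from 9 (24 h replicate 2) to 89 (12 h replicate 3), with 14 for replicate 1 of 24 h 25 or 26 for any 4 h array and 81 for replicate 3 of 24 h. The 146 list genes called became 277 with array weights, 81 to 182 without 1 array, 157 counting A probe sets first and 180 counting any probe set.

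With the replicate number as a block A gave 589 calls and B 32. Correlations of same-numbered deviations between 4 h and 24 h were -0.12, -0.0022 and 0.23 on A and -0.04, 0.02 and 0.02 on B. Only replicate 3 matched its own number best. With 3 arrays a time these values cannot exclude pairing. Between A and B, deviations of same-numbered arrays correlated at 0.099, 0.244 and 0.103 at 4 h and at 0.167, 0.066 and 0.167 at 24 h. Pairs with different numbers ran from -0.2 to 0.079. Whether same-numbered A and B arrays hold the same RNA was not tested.

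Of the named results, 3 that did not pass changed sign. Myog went from 0.05 to -0.0517 with array weights and ranged from -0.272 (replicate 2 of 4 h dropped) to 0.254 over the runs without 1 array, with -0.0232 and -0.00096 when replicate 1 or 2 of 24 h was dropped. Myod1 ranged from -0.305 to 0.0334 (replicate 1 of 4 h dropped). Acta1 ranged from -0.105 (replicate 2 of 4 h dropped) to 0.160, with -0.0317 when replicate 2 of 24 h was dropped. Across all 222 named results and settings, 4583 values stayed on their side of the threshold, 627 lost and 66 gained a call, and the cause was not tested. The B arrays, with a median standard error of 0.260 against 0.176, limit which changes could pass.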

Other observations

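Signalling genes of other pathways changed in small numbers. In the Notch pathway, a cell-contact signal, the receptor gene Notch3 rose by 0.74 ± 0.16 and its targets Heyl (1.79 ± 0.44, from 133, 17.1 and 93.8 at 4 h and 235, 216 and 371 at 24 h) and Hes1 (0.57 ± 0.15) rose, while Lfng, which modifies Notch receptors, fell by 0.78 ± 0.18. Hes1 and Heyl lost their calls in 12 of 24 and 7 of 23 other settings. The Notch ligand gene Jag1 changed by 0.89 ± 0.23 on the B arrays and did not pass (limma adjusted p = 0.122). By the probe set with the highest mean 2 of 17 pathway genes rose and 1 fell. Among TGF-beta family genes Ltbp2 (-1.03 ± 0.20) and the activin subunit gene Inhbb (-0.99 ± 0.23) fell. Tgfb1 (-0.61 ± 0.17, limma adjusted p = 0.0549) and Tgfb3 (1.02 ± 0.29, limma adjusted p = 0.0628) had changes of opposite sign and did not pass.

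Among secreted factors the pattern recognition protein gene Ptx3 had 149, 149 and 142 at 4 h and 523, 534 and 582 at 24 h and rose by 1.79 ± 0.26 (limma adjusted p = 0.00121), with a mean of 1774 at 48 h. Hbegf, a growth factor, rose by 0.72 ± 0.18 and Vegfc fell by 0.91 ± 0.15 on the B arrays, and they were not called in 8 and 7 of 24 other settings. Of p53 targets Trp53inp1 had 538, 431 and 534 at 4 h and 176, 264 and 168 at 24 h and fell by 1.26 ± 0.19 (limma adjusted p = 0.00138). The prolyl hydroxylases P4ha1 (0.91 ± 0.15) and P4ha2 (0.99 ± 0.19), which modify collagen, rose. Dcx, a microtubule protein of young neurons, was called higher (2.34 ± 0.60) although its values overlapped (33.1, 342 and 31.3 at 4 h and 327, 534 and 559 at 24 h), since 4 h replicate 2 was as high as a 24 h array, and it lost that call in 13 of 24 other settings.

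Cytosolic ribosomal proteins had 0 of 43 past limma's threshold, 2 at an unadjusted p under 0.05 (16.5% of all genes tested) and 37 changes below 0, with a median of -0.13. Proteasome subunits had 0 of 35 past it, 3 at an unadjusted p under 0.05, and a median of 0.05.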
